A study of Homo sapiens with 23 samples.

Results

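The 10 cadherin genes described here were CDH1, CDH2, CDH3, CDH4, CDH6, CDH11, CDH13, CDH16, CDH18 and CDH19, taken by NCBI Gene ID from a table of 21658 genes, and all 10 were found in it. They were chosen from cadherin genes of this table with differences between its resistant and parental libraries already known, and the exact values that chose them were not recorded. Their levels and differences are therefore given as a description and no test is drawn on them. CDH1, CDH2, CDH3 and CDH4 are type I classical cadherins (E-, N-, P- and R-cadherin). CDH6, CDH11, CDH18 and CDH19 are of type II, CDH13 (T-cadherin) is held in the membrane by a lipid anchor and has no cytoplasmic tail, and CDH16 is the kidney-specific, 7D-type cadherin.

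Cadherins are calcium-dependent adhesion proteins that join neighbouring cells, mostly by binding the same cadherin on the other cell. The classical cadherins hold on to the actin cytoskeleton through catenins, whereas some family members lack the part that binds them. A loss of E-cadherin with a gain of N-cadherin, known as cadherin switching, is a textbook mark of epithelial cells that take on mesenchymal features, and ovarian carcinomas are known for expressing both.

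The data were RNA-seq values of 4 established lines of ovarian cancer (Kuramochi, OVSAHO, OV-90 and EFO-21), each as a parental culture and as a form made resistant to prexasertib, an inhibitor of the checkpoint kinase CHK1. Resistance was raised by growing the cells in rising concentrations of the drug, and neither the final concentration for these lines nor whether a resistant line was 1 clone or a pool was stated. Each group had 3 libraries except parental OV-90 with 2, which gives 23 libraries in 8 groups, labelled as biological replicates. Library numbers run from 2 to 12 in the parental and from 13 to 24 in the resistant libraries. What the numbers stand for is not stated, and their order cannot be told apart from the form.

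Values were log2 expression levels that the authors had quantile normalized, and read depth is unknown. They are not scaled to gene length, so a level is compared here between groups for 1 gene and never between genes. The bottom of a library means a value at or below its 10th percentile (1.70 to 1.87), and a difference from a group lying there is a difference of log2 values rather than a measured fold. A gene was called at a limma adjusted p under 0.05 over all genes and at least 2-fold. The smallest exact permutation p that groups of this size allow is 0.1, so no such test was run. In bulk RNA, fewer cells with a transcript and less transcript per cell cannot be told apart.

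All 23 libraries were most similar to another library of their own line. Within groups the Pearson correlation across genes was 0.971 to 0.988, except 0.952 between the parental OV-90 libraries, 2 and 3. Among 8 epithelial and Müllerian markers, PAX8 was low in OV-90, MUC16 lay at the bottom in all OV-90 libraries and WT1 in all EFO-21 libraries. Of 7 blood and endothelial markers, the haemoglobin gene HBB read 4.92 to 5.72 in parental OVSAHO and 0.01 to 0.02 in resistant OVSAHO. In OV-90 it read 6.76 in parental library 2 and 1.85 in parental library 3. The resistant OV-90 libraries read 1.94, 4.21 and 3.87, so the groups overlapped. In Kuramochi HBB read 4.68 in parental library 6, 0.63 and 1.87 in libraries 4 and 5, and 0 in the resistant libraries. The summed log2 level of these 7 markers was higher in the parental than in the resistant libraries of Kuramochi (18.8 to 27.7 against 14.2 to 14.9), OVSAHO (17.76 to 23.64 against 8.99 to 11.2), OV-90 (25.2 to 33.6 against 19.8 to 22.0) and EFO-21 (26.4 to 27.6 against 22.8 to 24.5). Of the 7, 0 were called higher in any line (limma, with 1 higher at an unadjusted p under 0.05 in OVSAHO and 0 in the other lines), and 2 fell in Kuramochi, 3 in OVSAHO, 1 in OV-90 and 2 in EFO-21. Those that fell were VWF and KDR in Kuramochi, PTPRC, CD3E and HBB in OVSAHO, PECAM1 in OV-90, and CD14 and KDR in EFO-21. The called genes thus differed between lines, and HBB was at the bottom in all EFO-21 libraries. The part of these 7 markers in the cadherin differences was not tested.

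CDH1, CDH3, CDH11, CDH13 and CDH16 lie on chromosome 16, and all positions here are of GRCh37 from GENCODE. CDH3 (68670092 to 68761371, plus strand) ends 9824 bases before CDH1 (68771195 to 68869440, plus strand). CDH11 (64977656 to 65160015), CDH16 (66942025 to 66952820) and CDH13 (82660570 to 83834245) are on the same chromosome. CDH6 (31193793 to 31329253) and CDH18 (19471405 to 20575982) are on chromosome 5, CDH2 (25512843 to 25757910) and CDH19 (64168320 to 64271375) on chromosome 18, and CDH4 (59827317 to 60515673) on chromosome 20. The value of CDH4 came from 1 exon, as a mean of log2 values, that of CDH19 from 5 and that of CDH13 from 6 exons or junctions, and those of the other 7 from 23 to 41.

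The RefSeq promoter table (GRCh38.p14) held start sites for 4 members, CDH2, CDH4, CDH18 and CDH19. The 250 bases before a start are shown for CDH2 (chr18:28177131-28177380, minus strand) and CDH19 (chr18:66604091-66604340, minus strand), the pair on chromosome 18 that were both higher in resistant EFO-21. Capitals mark CG dinucleotides, the sites of DNA methylation.
CDH2: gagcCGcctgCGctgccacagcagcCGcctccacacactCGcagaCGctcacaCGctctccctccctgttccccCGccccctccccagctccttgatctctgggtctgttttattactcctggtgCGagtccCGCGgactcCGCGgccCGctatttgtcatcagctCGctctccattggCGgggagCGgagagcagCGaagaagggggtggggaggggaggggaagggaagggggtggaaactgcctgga
CDH19: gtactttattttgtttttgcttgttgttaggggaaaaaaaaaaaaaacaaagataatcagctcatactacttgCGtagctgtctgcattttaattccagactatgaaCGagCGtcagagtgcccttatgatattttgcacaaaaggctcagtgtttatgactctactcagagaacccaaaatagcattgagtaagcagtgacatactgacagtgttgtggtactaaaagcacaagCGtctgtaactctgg
The CDH2 stretch has 17 CG and the CDH19 stretch 4, where the median of 35116 such stretches was 11. A second listed start of CDH2 (chr18:28036642-28036891, minus strand, not shown) has 4 CG before it, as many as CDH19. At least 17 CG were found in 39.0% of them and at least 4 in 70.7%. The E-box motif CANNTG, searched on both strands since it reads the same on each, was present in neither sequence shown, once before the second CDH2 start, in 4 of the 8 stretches of the members and in 61.8% of all. The narrower forms CACCTG or CAGGTG, which ZEB and SNAI repressors are known to bind, were present in 1 of 8 (CDH4) and in 17.5% of all. No DNA methylation or factor binding was measured here.

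**Figure D1:**
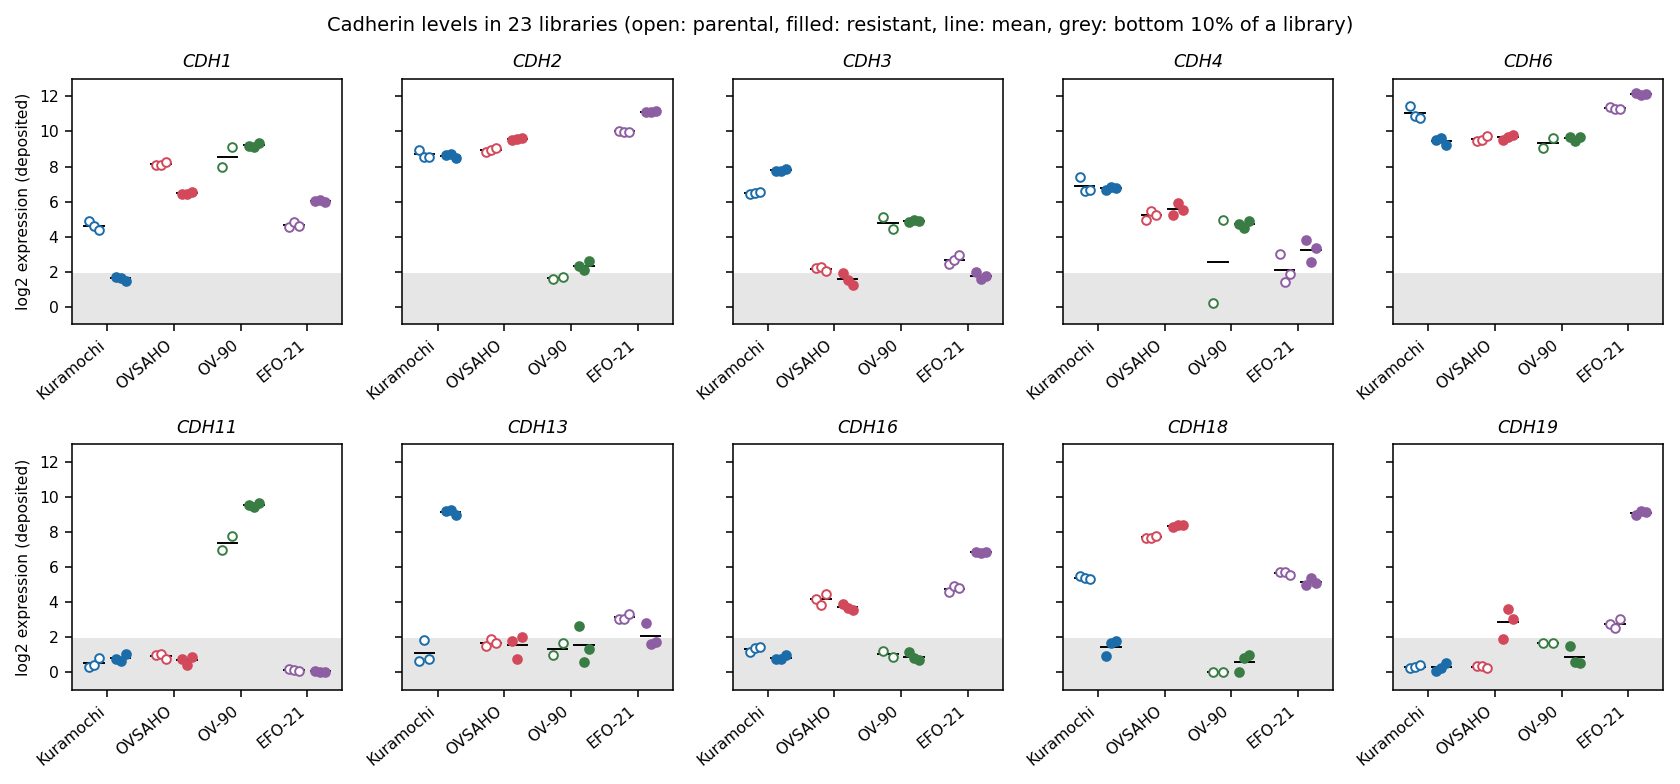
Log2 expression of the 10 cadherins (1 panel each, y axis) in the parental (open) and resistant (filled) libraries of 4 lines (x axis). Points are libraries, lines are group means and grey marks the range of library bottoms. CDH11 stands above the grey band in OV-90 alone, and CDH13 stands near 9 in resistant Kuramochi alone.

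The parental lines differed in which cadherins they carried. E-cadherin (CDH1) was high in parental OV-90 (8.56 ± 0.79, SD, n = 2) and parental OVSAHO (8.14 ± 0.11, n = 3), which overlapped, and low in parental EFO-21 (4.65 ± 0.16, n = 3) and Kuramochi (4.62 ± 0.25, n = 3), which also overlapped. N-cadherin (CDH2) was ordered otherwise, at 9.99 to 10.04 in EFO-21 (n = 3), 8.93 ± 0.14 in OVSAHO, 8.70 ± 0.23 in Kuramochi and 1.66 ± 0.08 in OV-90, where OVSAHO and Kuramochi overlapped and the others did not. Parental OV-90 thus had CDH1 with CDH2 at the bottom in both libraries, whereas parental OVSAHO had both genes well above the bottom.

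P-cadherin (CDH3), found in basal epithelia and placenta, was highest in Kuramochi (6.48 ± 0.06), followed by OV-90 (4.76 ± 0.50), EFO-21 (2.68 ± 0.27) and OVSAHO (2.17 ± 0.11), with no overlap between neighbours in this order. R-cadherin (CDH4), known from retina and brain, was 6.88 ± 0.44 in Kuramochi and 5.22 ± 0.25 in OVSAHO. It read 2.99, 1.39 and 1.88 in the parental EFO-21 libraries. In parental OV-90 it read 0.22 in library 2 and 4.94 in library 3, so no level can be given for that group.

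Among type II members, K-cadherin (CDH6), of kidney and ovarian carcinoma, was above 9 in all 23 libraries. It was 11.31 ± 0.06 in EFO-21 and 11.04 ± 0.35 in Kuramochi, which overlapped, and 9.58 ± 0.15 in OVSAHO and 9.35 ± 0.40 in OV-90, which overlapped too. OB-cadherin (CDH11), a mesenchymal and osteoblast cadherin, was 7.36 ± 0.56 in parental OV-90 and at the bottom in all parental libraries of the other lines. CDH18, a cadherin of the nervous system, was ordered differently, at 7.70 ± 0.05 in OVSAHO, 5.66 ± 0.09 in EFO-21, 5.37 ± 0.08 in Kuramochi and at the bottom in both parental OV-90 libraries. CDH19, known from Schwann cells and their precursors, was 2.77 ± 0.26 in EFO-21 and at the bottom in the other parental libraries. CDH13 was above the bottom in all parental libraries of EFO-21 alone (3.13 ± 0.15), and CDH16 was 4.77 ± 0.16 in EFO-21 and 4.15 ± 0.29 in OVSAHO and at the bottom in Kuramochi and OV-90.

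Between parental lines, most of the differences of these genes passed the call rule, as did a large share of all genes. Called were 5 of 10 members between OVSAHO and Kuramochi (37.6% of all genes), 8 between OV-90 and Kuramochi (47%), 6 between EFO-21 and Kuramochi (41.3%), 7 between OV-90 and OVSAHO (48.1%), 7 between EFO-21 and OVSAHO (44.2%) and 9 between EFO-21 and OV-90 (50.2%). These 6 comparisons share groups. CDH2 was 7.04 (SE 0.13) lower in OV-90 than in Kuramochi and CDH11 was 6.85 (SE 0.32) higher. Across the 8 group means the levels of CDH2 and CDH11 had a Pearson r of -0.96, a description in which the OV-90 groups hold the low CDH2 and high CDH11 points.

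**Figure D2:**
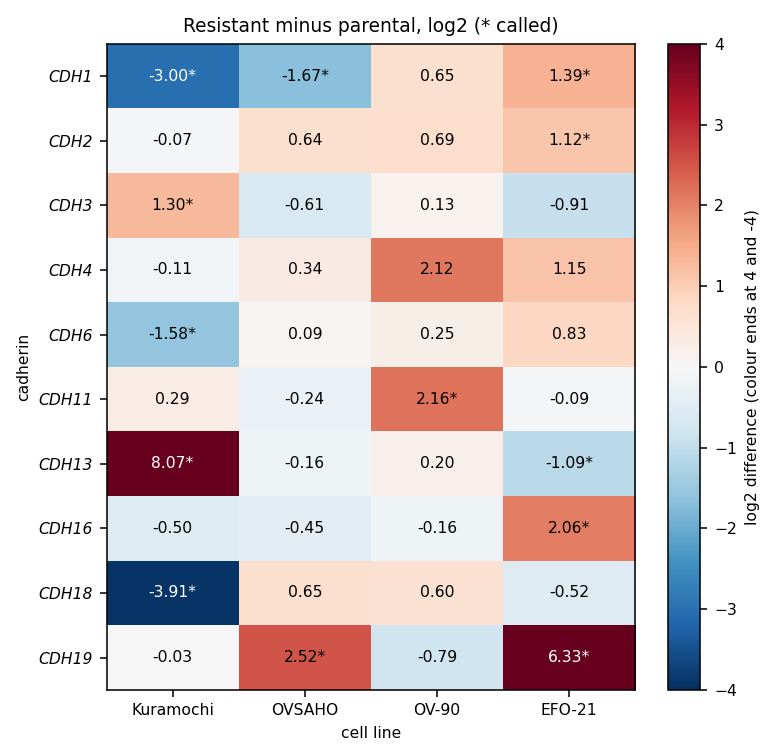
Difference of mean log2 expression, resistant minus parental, for the 10 cadherins (rows) in 4 lines (columns), with a star where the gene was called. Red is higher and blue lower in the resistant form, and no row is called in more than 3 columns.

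In the resistant forms no cadherin was called in the same direction in all 4 lines. In resistant Kuramochi 2 members were called higher (CDH3, CDH13), where 11.8% of all genes were, and 3 lower (CDH1, CDH6, CDH18), where 10.6% were. In OVSAHO 1 was called higher (CDH19, with 3.93% of all genes) and 1 lower (CDH1, with 3.83%). In OV-90 1 was called higher (CDH11, with 9.5%) and 0 lower, with 6.56% of all genes, and in EFO-21 4 were called higher (CDH1, CDH2, CDH16, CDH19, with 7.11%) and 1 lower (CDH13, with 7.15%). The resistant and parental libraries did not overlap for 6 members in Kuramochi (59.2% of all genes), 5 in OVSAHO (48.4%), 3 in OV-90 (69.1%) and 8 in EFO-21 (59.7%). For 7 members the resistant libraries lay above the parental ones without overlap in at least 1 line and below them in at least 1 other, as they did for 43.5% of all genes. Since the members were picked with such differences known, nothing is read from these counts.

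CDH1 went in opposite directions in different lines. In Kuramochi it read 4.88, 4.58 and 4.39 in the parental libraries and 1.72, 1.64 and 1.47 in the resistant ones, a difference of -3.00 (SE 0.21) that ended at the bottom in all 3 resistant libraries. In OVSAHO it read 8.09, 8.07 and 8.27 against 6.43, 6.45 and 6.53, a difference of -1.67 (SE 0.07), which is 3.18-fold. The groups stood apart in both lines. In EFO-21 it was higher in the resistant form, with 4.52, 4.83 and 4.59 against 6.01, 6.09 and 6.0, a difference of 1.39 (SE 0.12), and again the groups did not overlap.

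In OV-90 the CDH1 difference rested on which parental library was used. The parental libraries read 8.0 (library 2) and 9.12 (library 3) and the resistant ones 9.17, 9.11 and 9.35. The groups overlapped and the difference of 0.65 (SE 0.34) was not called, while without library 3 it was 1.21 and called, and without library 2 it was 0.09.

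CDH2 was never lower by the call rule. In Kuramochi it read 8.96, 8.57 and 8.56 in parental and 8.66, 8.74 and 8.46 in resistant libraries, which overlapped (difference -0.07, SE 0.13). In OVSAHO it read 8.80, 8.92 and 9.08 against 9.51, 9.58 and 9.63, a difference of 0.64 (SE 0.08) without overlap that stayed under 2-fold. In EFO-21 it read 10.04, 9.99 and 9.99 against 11.12, 11.10 and 11.14, a difference of 1.12 (SE 0.03). All 3 resistant EFO-21 libraries lay more than 1 above the parental ones for this gene. In OV-90 it read 1.60 and 1.71 against 2.31, 2.12 and 2.62, so the parental libraries were at the bottom and the resistant ones just above it.

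The balance of the 2 genes was followed as CDH2 minus CDH1 in each library, which is meaningful only as a change between groups since each gene carries its own offset. In Kuramochi it was 4.08 ± 0.10 in parental and 7.01 ± 0.08 in resistant libraries, a shift of 2.93 towards CDH2. In OVSAHO it was 0.79 ± 0.07 and 3.10 ± 0.02, a shift of 2.31. In both lines CDH1 made up most or all of the shift, as CDH2 differed by -0.07 and 0.64. In EFO-21 it was 5.36 ± 0.19 and 5.09 ± 0.07, a small shift of -0.27 the other way, with both genes higher in the resistant form. In OV-90 the shift was 0.04, with overlapping groups (-6.90 ± 0.72 and -6.86 ± 0.13), and its sign turned without library 3 (-0.47) or library 15 (-0.02).

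**Figure D3:**
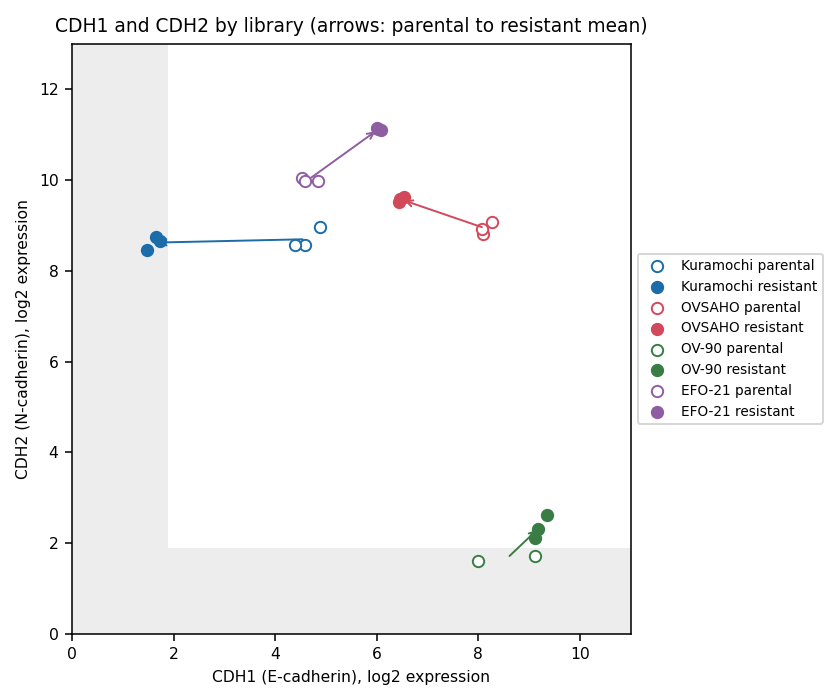
CDH1 (x axis) against CDH2 (y axis), log2 expression, in each of 23 libraries, with arrows from the parental to the resistant mean of each line and grey where a gene is at the bottom. Kuramochi and OVSAHO move left, by 3.00 and 1.67, and EFO-21 moves up and right.

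The third type I gene, CDH3, was higher in resistant Kuramochi, where its neighbour CDH1 was lower. It read 6.41, 6.50 and 6.53 in parental and 7.74, 7.76 and 7.83 in resistant Kuramochi, a difference of 1.30 (SE 0.08) without overlap. In EFO-21 the pair differed the opposite way, with CDH3 at 2.41, 2.68 and 2.95 against 1.96, 1.58 and 1.76, of which 2 were at the bottom (difference -0.91, SE 0.20), which was not called with all libraries but was without library 10 (-1.05) or library 22 (-1.01). In OVSAHO, CDH3 was close to the bottom in both forms (2.17 ± 0.11 and 1.56 ± 0.35, with 2 of 3 resistant libraries at it), and in OV-90 the groups overlapped (4.76 ± 0.50 and 4.89 ± 0.05). The 10 measured genes around CDH3 and CDH1, 5 on each side, had a median change of 0.36 in Kuramochi, with 3 called higher and 0 lower. One of the direct neighbours, ZFP90, rose by 1.15 (adjusted p = 0.00255, limma), and the other, TANGO6, by 0.72 (adjusted p = 0.0028) without reaching 2-fold.

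CDH4 was not called in any line. It overlapped between forms in Kuramochi (6.88 ± 0.44 and 6.76 ± 0.08), OVSAHO (5.22 ± 0.25 and 5.56 ± 0.34) and EFO-21 (2.09 ± 0.82 and 3.24 ± 0.64, difference 1.15, SE 0.51). In OV-90 the resistant libraries read 4.70, 4.48 and 4.92, below parental library 3 and far above parental library 2. The difference of 2.12 (SE 1.41) became 4.48 and was called without library 3, and -0.24 without library 2. Without library 10, CDH4 in EFO-21 differed by 1.60 and was called.

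Of the type II cadherins, CDH6 was lower in resistant Kuramochi, at 9.52, 9.63 and 9.23 against 11.44, 10.88 and 10.79 in the parental libraries, a difference of -1.58 (SE 0.19). In EFO-21 it was higher, at 12.20, 12.08 and 12.15 against 11.37, 11.25 and 11.31, a difference of 0.83 (SE 0.05) that stayed under 2-fold although the groups stood far apart. In OVSAHO (0.09, SE 0.09) and OV-90 (0.25, SE 0.19) the groups overlapped.

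CDH11 differed in OV-90, the line in which it was above the bottom. It read 6.96 and 7.75 in parental and 9.52, 9.40 and 9.62 in resistant OV-90, a difference of 2.16 (SE 0.25), or 4.46-fold, with all resistant libraries above both parental ones. With fewer resistant libraries the size held and the call was lost, at 2.16 without library 13, 2.21 without library 14 and 2.10 without library 15. With a parental library left out the difference ran from 1.76 to 2.55. In the 18 libraries of the other lines CDH11 lay between 0.03 and 1.01, at the bottom throughout. Around CDH11, 1 of 10 measured neighbours was called higher in OV-90 and 0 lower, and the direct neighbours LINC02141 (-0.64, adjusted p = 0.176) and CDH5 (1.26, adjusted p = 0.058) did not pass.

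CDH18 ended at the bottom in resistant Kuramochi. It read 5.46, 5.35 and 5.30 in the parental libraries and 0.94, 1.65 and 1.77 in the resistant ones, a difference of -3.91 (SE 0.27). In OVSAHO it was higher without overlap, at 8.27, 8.38 and 8.41 against 7.68, 7.67 and 7.76 (difference 0.65, SE 0.05), and in EFO-21 lower without overlap, at 4.98, 5.35 and 5.10 against 5.71, 5.71 and 5.56 (difference -0.52, SE 0.13), both under 2-fold. Of its direct neighbours, the non-coding gene LINC02223 fell by 4.13 in Kuramochi to the bottom (adjusted p = 0.000164). Among the 10 measured neighbours there, 2 were called higher and 2 lower. All OV-90 libraries of both forms had CDH18 at the bottom.

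CDH19 rose out of low values in both OVSAHO and EFO-21 libraries by the call rule. In EFO-21 it read 2.75, 2.52 and 3.04 in parental and 8.98, 9.18 and 9.13 in resistant libraries, a difference of 6.33 (SE 0.15) that put it, of the 8 groups, in resistant EFO-21 far above all others. In OVSAHO it read 0.36, 0.36 and 0.22 against 1.87, 3.60 and 3.03, a difference of 2.52 (SE 0.44) from a parental group at the bottom. The resistant OVSAHO libraries spread widely, and they overlapped with parental EFO-21. In all Kuramochi and OV-90 libraries of both forms CDH19 was at the bottom. Its 10 measured neighbours in EFO-21 had a median change of -0.17, with 0 called higher and 1 lower, and the direct neighbours SERPINB8 (-0.09, adjusted p = 0.377) and DSEL (-0.06, adjusted p = 0.856) did not pass.

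CDH13 had the greatest difference of any member. It read 0.64, 1.86 and 0.73 in parental Kuramochi, with 2 of 3 libraries at the bottom, and 9.21, 9.27 and 8.96 in resistant Kuramochi, a log2 difference of 8.07 (SE 0.35). All other groups had means of 3.13 or less, and in OVSAHO and OV-90 the parental and resistant libraries overlapped. In the same 10-gene surroundings 0 were called higher and 2 lower, and the direct neighbours MPHOSPH6 (0.50, adjusted p = 0.0166) and HSBP1 (0.22, adjusted p = 0.0215) rose by less than 2-fold. In EFO-21 CDH13 was lower, at 2.79, 1.60 and 1.72 against 3.05, 3.03 and 3.30 (difference -1.09, SE 0.34), near the bottom in both forms. That call was lost when library 10 (-1.13), 11 (-1.14), 12 (-1.01), 23 (-0.87) or 24 (-0.93) was left out and in a fit of all 23 libraries.

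CDH16 was higher in resistant EFO-21, at 6.84, 6.77 and 6.87 against 4.59, 4.91 and 4.81, a difference of 2.06 (SE 0.11), or 4.17-fold, without overlap. In OVSAHO the groups overlapped (4.15 ± 0.29 and 3.71 ± 0.17), and in Kuramochi and OV-90 all libraries were at the bottom. Of its 10 measured neighbours in EFO-21, 1 was called higher and 1 lower, with a median change of 0.16. The direct neighbour RRAD fell there (-1.70, adjusted p = 0.00258) and rose in Kuramochi (3.22, adjusted p = 7.68e-05), and the other, PDP2, did not pass in EFO-21 (0.19, adjusted p = 0.322) or Kuramochi (-0.63, adjusted p = 0.307).

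By type, the medians of the differences are given with the median of all genes, which was between -0.06 and 0.01 in each line. Since the members were picked with such differences known, nothing is read from a gap between them. The 4 type I genes had medians of -0.09 in Kuramochi, -0.14 in OVSAHO, 0.67 in OV-90 and 1.13 in EFO-21. With each library left out in turn they ran from -0.20 to 0.10 in Kuramochi, from -0.22 to -0.05 in OVSAHO and from 0.95 to 1.24 in EFO-21. In OV-90 the type I median was 0.28 without parental library 2 and 0.98 without parental library 3. Outside Kuramochi each type I median rests in part on a gene with some libraries at the bottom. These genes were CDH3 in OVSAHO (2 of 3 resistant libraries), CDH2 in OV-90 (both parental libraries) and CDH4 in EFO-21 (1 of 3 parental libraries). The 4 type II genes had medians of -0.81, 0.37, 0.42 and 0.37 in the same order, and in OV-90 theirs was 0.28 without library 2 and 0.56 without library 3. Outside OVSAHO each type II median rests in part on a gene at the bottom in all libraries of the line. That gene was CDH19 in Kuramochi, CDH18 in OV-90 and CDH11 in EFO-21. In Kuramochi, CDH6 and CDH18 of this type were the lower pair, and in EFO-21 CDH19 carried the one call.

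Other cadherin genes were measured for 8 of 13 listed, none of them among the 10 above, and their tests are limma adjusted over all genes. In Kuramochi 2 rose and 1 fell, in OVSAHO 1 rose, in OV-90 2 rose and 1 fell, and in EFO-21 0 were called, with 4 higher and 1 lower at an unadjusted p under 0.05. VE-cadherin (CDH5), the endothelial cadherin, rose in Kuramochi from 4.75 ± 0.30 to 7.62 ± 0.12 (difference 2.87, SE 0.17, adjusted p = 7.00e-05), while the endothelial markers VWF and KDR fell there and PECAM1 was at the bottom in all its libraries. The CDH5 call in OVSAHO (1.29, adjusted p = 0.00187) lay within the bottom in both groups. CDH5 was highest in EFO-21, at 9.11 ± 0.07 in parental and 9.33 ± 0.09 in resistant libraries. PECAM1 was high in that line too, at 8.48 ± 0.05 and 8.55 ± 0.05. The other endothelial markers were not, with VWF at 3.65 ± 0.07 and 3.95 ± 0.05. KDR fell there from 2.75 ± 0.30 to 1.15 ± 0.08, at the bottom in all 3 resistant libraries. In OV-90, CDH12 (1.13, adjusted p = 0.0335) and LI-cadherin CDH17 (1.07, adjusted p = 0.0142) rose and CDH26 fell from 8.59 ± 0.16 to 7.23 ± 0.05 (difference -1.36, adjusted p = 0.00553). CDH26 and CDH15 in Kuramochi (1.65 and -1.85) were low throughout and are named after their values were seen, as are the genes below whose higher group mean did not exceed 5.81, the median of all gene means.

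The catenins, which tie classical cadherins to actin, and their partners were measured for 11 of 12. Beta-catenin (CTNNB1) was not called in any line. In Kuramochi 3 fell, with afadin (AFDN), an actin-binding junction protein, down from 8.89 ± 0.55 to 7.54 ± 0.27 (-1.35, adjusted p = 0.00999) and the neuronal catenins CTNND2 (-3.08, adjusted p = 0.000177) and CTNNA2 (-1.53, adjusted p = 0.00213) ending at the bottom. In OVSAHO the same neuronal catenins fell, CTNNA2 by 1.14 (adjusted p = 0.00016) and CTNND2 by 1.31 (adjusted p = 0.0015). In EFO-21 0 were called, with 4 higher and 4 lower at an unadjusted p under 0.05. In OV-90 p120-catenin (CTNND1, 1.66, adjusted p = 0.0263), which holds cadherins at the membrane, vinculin (VCL, 1.56, adjusted p = 0.0257) and AFDN (1.95, adjusted p = 0.0222) rose.

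Desmosomal cadherins were measured for 3 of 7 and enzymes that process cadherins for 5 of 5. DSG2 (2.17, adjusted p = 0.0244) and the sheddase ADAM10 (1.20, adjusted p = 0.0322) rose in OV-90. DSC2 fell in EFO-21 from 4.06 ± 0.09 to 1.96 ± 0.11 (-2.10, adjusted p = 0.000179). DSC3 fell in OVSAHO (-2.68, adjusted p = 0.0178) to the bottom in all 3 resistant libraries. That call was lost without library 7 (-2.53), 8 (-2.42), 19 (-2.40) or 21 (-2.40). Of the 27 measured genes of these 4 lists, 6 were called in Kuramochi, 4 in OVSAHO, 8 in OV-90 and 1 in EFO-21. Of all genes, 11.8% were called higher and 10.6% lower in Kuramochi and 3.93% and 3.83% in OVSAHO. These shares were 9.5% and 6.56% in OV-90 and 7.11% and 7.15% in EFO-21, and they stand beside the counts of all gene lists here. The lists were chosen with earlier results known, so nothing is read from their counts. Of the 8 in OV-90, 7 were lost when resistant library 13, 14 or 15 was left out, which leaves 1 call each time, and 11 were called without library 3. The differences themselves stayed near the reported ones with a resistant library left out, at 2.10 to 2.25 for DSG2, 1.87 to 2.01 for AFDN, 1.61 to 1.73 for CTNND1, 1.502 to 1.624 for VCL and 1.13 to 1.27 for ADAM10. CDH12 (1.08 to 1.18) and CDH17 (0.99 to 1.13) kept their size too in those fits. The parental OV-90 libraries lay further apart, at 5.81 and 7.14 for DSG2 and 4.92 and 6.002 for AFDN. They read 6.60 and 7.67 for CTNND1 and 7.87 and 8.86 for VCL. The sizes for DSG2, AFDN, CTNND1 and VCL thus depend on the parental library used. Without library 2, CDH12 (0.71), CDH17 (0.98) and ADAM10 (0.78) were under 2-fold, and over all these losses the adjusted p ran from 0.0213 to 0.115.

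**Figure D4:**
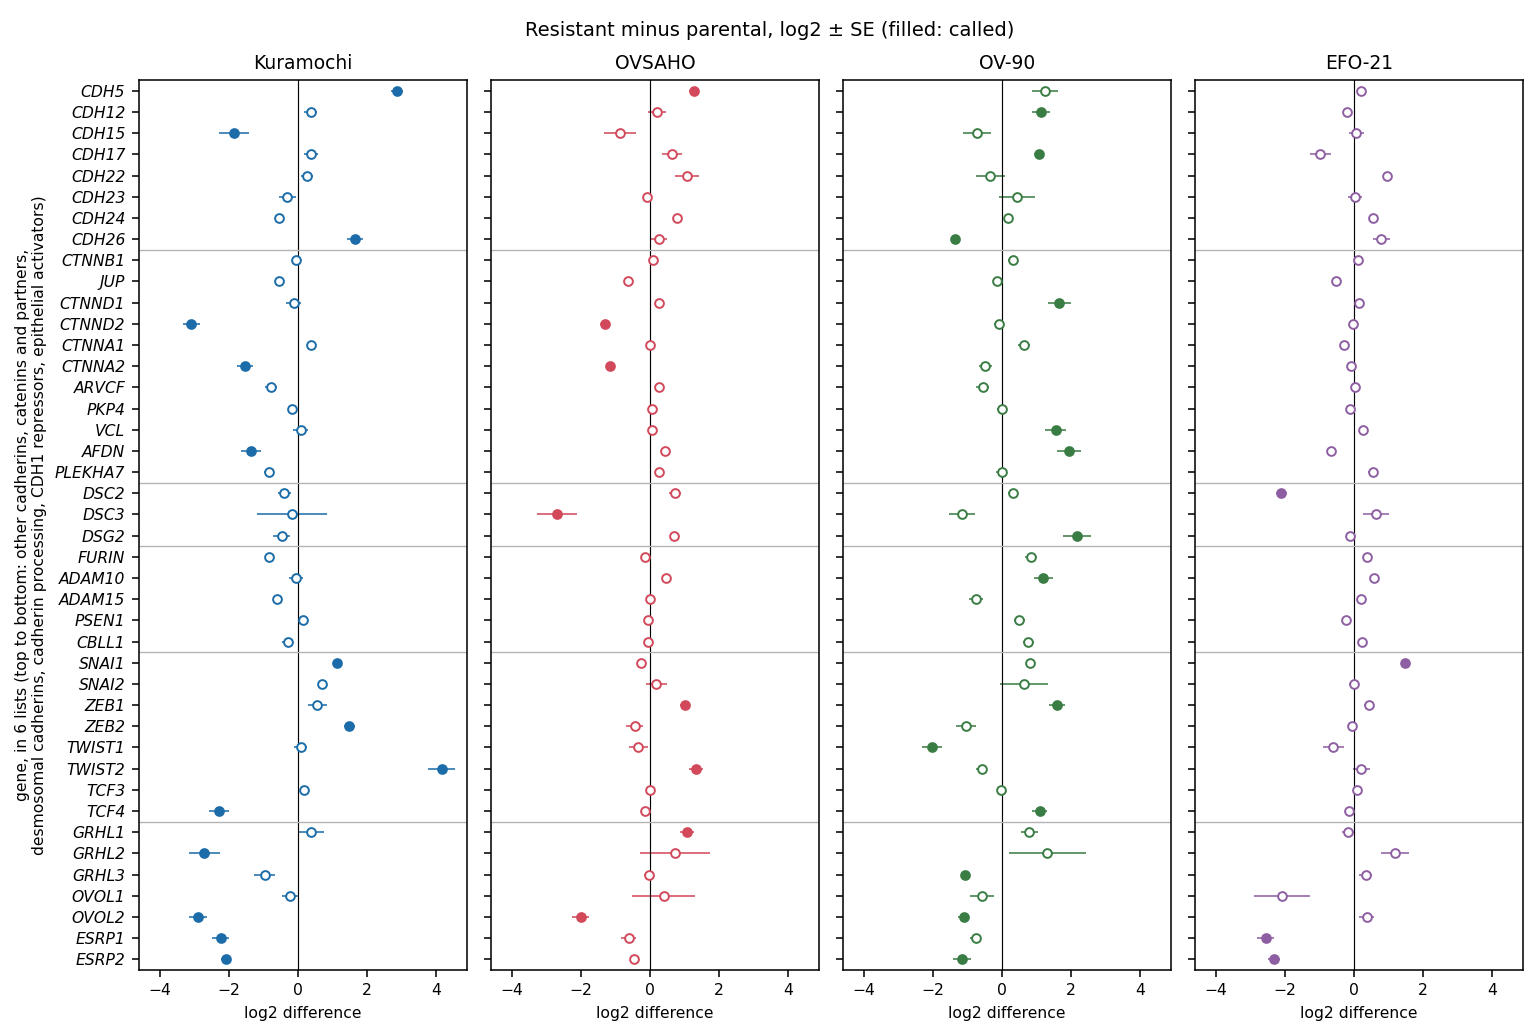
Difference of log2 expression, resistant minus parental, ± SE (x axis) for the measured genes of 6 lists (rows) in 4 lines (panels), filled where called. Repressor genes TWIST2 and ZEB2 stand to the right in Kuramochi, where OVOL2 and the ESRP genes stand to the left.

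Transcription factors known to repress CDH1 were measured for 8 of 8. In Kuramochi, where CDH1 was lower, TWIST2 (4.16, adjusted p = 0.000398), ZEB2 (1.48, adjusted p = 0.000585) and SNAI1 (1.12, adjusted p = 3.59e-05) rose and TCF4 fell (-2.28, adjusted p = 0.00137). In OVSAHO, where CDH1 was lower too, TWIST2 (1.33, adjusted p = 0.00569) and ZEB1 (1.02, adjusted p = 0.0038) rose, the latter just over 2-fold and under it without library 8 (0.88) or 20 (0.99). In EFO-21, where CDH1 was higher, SNAI1 rose from 6.73 ± 0.10 to 8.21 ± 0.15 (1.48, adjusted p = 0.000115) and no other repressor was called. In OV-90 ZEB1 (1.60, adjusted p = 0.0176) and TCF4 (1.10, adjusted p = 0.0259) rose and TWIST1 fell (-2.02, adjusted p = 0.0155), calls that were lost without library 13, 14 or 15. Their differences stayed as large in those fits, at 1.57 to 1.63 for ZEB1, 1.04 to 1.18 for TCF4 and -2.05 to -1.98 for TWIST1. The parental libraries read 2.50 and 3.03 for ZEB1 and 4.49 and 5.21 for TWIST1, so these sizes depend on the parental library used. Without library 2 TCF4 was under 2-fold (0.95).

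Epithelial regulators (GRHL, OVOL and ESRP genes) were measured for 7 of 7. In Kuramochi 4 fell, ESRP2, a splicing factor of epithelial cells, by 2.09 (adjusted p = 0.000108) and OVOL2, GRHL2 and ESRP1 by 2.89, 2.71 and 2.24. OVOL2 and GRHL2 ended at the bottom in all 3 resistant libraries and ESRP1 in 2 of 3, so these falls are not measured folds. In EFO-21, ESRP1 fell by 2.55 (adjusted p = 0.00054), with 2 of 3 resistant libraries at the bottom. ESRP2 fell there by 2.30 (adjusted p = 0.000186), while CDH1 was higher. In OVSAHO, OVOL2 fell (-2.01, adjusted p = 0.00277) and GRHL1 rose (1.06, adjusted p = 0.0107), the latter under 2-fold without library 7 (0.94) or 19 (0.99). In OV-90, GRHL3 (-1.05, adjusted p = 0.0106), OVOL2 (-1.11, adjusted p = 0.0147) and ESRP2 (-1.15, adjusted p = 0.0304) fell with CDH1 not called. These calls too were lost without library 13, 14 or 15, with differences of -1.09 to -1.03, -1.18 to -1.03 and -1.31 to -1.04. OVOL2 was under 2-fold without library 2 (-0.95) and GRHL3 without library 3 (-0.95), and ESRP2 missed the threshold without library 2 (-1.25, limma adjusted p = 0.0537) or 3 (-1.06, adjusted p = 0.0517).

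The summed log2 level of the 8 epithelial and Müllerian markers was lower in resistant than in parental libraries of all 4 lines, without overlap. This included EFO-21, where CDH1 was higher. In Kuramochi 5 of 8 fell and 0 rose, among them the adhesion protein EPCAM (-3.78, adjusted p = 3.34e-05) and keratin KRT19 (-3.96, adjusted p = 1.64e-05), and the summed log2 level of the list was 61.3 to 63.0 in parental and 46.4 to 47.5 in resistant libraries. In OVSAHO 4 of 8 fell and 0 rose, EPCAM by 3.01 (adjusted p = 1.23e-05) and MUC16 by 4.59 (adjusted p = 3.39e-05), with sums of 69.0 to 69.6 and 55.6 to 56.5. In OV-90 and EFO-21 0 of 8 were called in either direction by limma, while at an unadjusted p under 0.05 without a fold minimum 3 were lower and 0 higher in OV-90, and 6 lower and 2 higher in EFO-21. The sums there were 55.5 to 58.5 in parental and 53.6 to 54.7 in resistant OV-90, and 62.0 to 63.0 and 58.7 to 59.3 in EFO-21. These sums include genes at or near the bottom. In EFO-21 these were WT1 (-0.99), at the bottom throughout, and KRT7 (-0.82), from 2.76 to 1.94. KRT8 (-0.52), KRT18 (-0.75), KRT19 (-0.64) and EPCAM (-0.21) were lower there too, and PAX8 (0.20) and MUC16 (0.39) were higher. In OV-90 MUC16 lay at the bottom throughout, and KRT7, PAX8 and WT1 were low. In OVSAHO, where CDH1 was lower, the blood markers HBB (-5.23, adjusted p = 0.000126) and PTPRC (-2.88, adjusted p = 0.00165) fell to the bottom. CD3E fell there too (-2.60, adjusted p = 0.045), a call lost without library 7, 8, 19, 20 or 21. The others of that list were not called, with CD14 (-0.22) and KDR (-0.10) lower and VWF (0.47) and PECAM1 (0.48) higher. The part of these markers in the CDH1 difference was not tested.

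The genes whose 8 group means were most like those of a member were named by Pearson r among 13361 genes whose group means spanned at least 2, as a description in which groups of 1 line are not independent. For CDH1 they were LAMP1 (0.98), MCF2L (0.97) and the gene with ID 101927085 (0.97). For CDH2 they were ELK3 (0.996), ADRA1B (0.993) and HEXIM1 (0.992), for which, as for CDH2, the OV-90 groups hold the low points. For CDH6 they were CCL8, LINC02961 and LINC01473 (each 0.97), and for CDH13 MOBP (0.96), MSANTD2-AS1 (0.96) and ZP1 (0.95). CCL8 was at 0.85 or less in resistant Kuramochi and in both forms of OVSAHO and OV-90. For the CDH13 matches, as for CDH13, resistant Kuramochi alone holds the high point. In the case of ZP1 the level was 5.86 in resistant Kuramochi and 0.81 in parental Kuramochi, and at 2.79 or below in the other groups.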

How the data were processed

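Stranded mRNA libraries of 4 ovarian cancer lines were sequenced by the authors and aligned to GRCh37/hg19 with what they name the GSNP algorithm. Exons with few reads were left out and 1 value per gene was derived by a robust linear model over exons and junctions or as a mean of log2 values. The deposited values are log2 levels that the authors quantile normalized over libraries. The annotation release is not given in the sources used here. With no counts, depth is unknown and precision rests on the spread between libraries. Quantile normalization can hide a shift common to most genes.

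Resistant and parental libraries of each line, and the 11 parental libraries with 4 group means, were fitted with limma (version 3.58.1, R 4.3.3), with the eBayes prior following mean expression, for all 21658 genes, without a pseudocount or filter. P-values are two-sided and Benjamini-Hochberg adjusted over all genes. The code was tested on simulated data. Libraries were grouped by the line and form named in their column, and 0 columns belonged to other samples. Symbols came from RefSeq (GRCh38.p14) for 20745 genes, positions from GENCODE lifted to GRCh37 (release 44).

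The 10 members and the gene lists were chosen with earlier results of these data known. Besides the members, genes were named where called in at least 1 line with a higher group mean above the median, at most 4 per list and line, together with direct neighbours and the 3 most similar genes of 4 members. Alternatives were a fit of all 23 libraries, no trend, a filter at the 25th percentile of gene means, recentred libraries, a 1.5-fold or no fold minimum, values floored at the bottom for the CDH2 and CDH1 balance, and leaving out each library. One listed blood marker is not reported here.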

Additional observations from a re-analysis of the deposited data

Results flagged for a closer look

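For 7 of the 10 cadherins every resistant library of at least 1 line lay above the parental libraries while in at least 1 other line every resistant library lay below them, a pattern that 43.5% of all 21658 genes shared. The differences between lines were not tested, and the members were chosen with differences of these data known. CDH1 was higher in EFO-21 (1.39) and lower in Kuramochi (-3.00) and OVSAHO (-1.67). CDH3 was higher in Kuramochi (1.30) and lower in OVSAHO (-0.61) and EFO-21 (-0.91). CDH6 was higher in EFO-21 (0.83) and lower in Kuramochi (-1.58). CDH13 was higher in Kuramochi (8.07) and lower in EFO-21 (-1.09).

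CDH16 was higher in EFO-21 (2.06) and lower in Kuramochi (-0.50), where both forms lay at the bottom. CDH18 was higher in OVSAHO (0.65) and lower in Kuramochi (-3.91) and EFO-21 (-0.52). CDH19 was higher in OVSAHO (2.52) and EFO-21 (6.33) and lower in OV-90 (-0.79), where both forms lay at the bottom. All values are log2 differences, resistant minus parental.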

How the results depend on the processing

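No paired analysis was possible because the columns carry no replicate number. Of the recomputed counts and balances, 31 moved, by over 1.5 times for counts or over 1 SD for balances, 3 reversed and 187 did neither. Leaving out 1 library cannot move a change by more than 1 SD of its group, so such values are given as ranges. In OV-90 they were widest for CDH4 (-0.24 to 4.48) and ran from 0.09 to 1.21 for CDH1. The filter on low values kept 6 of 10 members (not CDH11, CDH13, CDH16 and CDH19) and 18 of 27 junction genes. Under it 1 member was called in OVSAHO, 0 in OV-90, 2 in EFO-21, and 3 between parental Kuramochi and EFO-21, 4 between OV-90 and OVSAHO and 5 between OV-90 and EFO-21, and 2, 1 and 5 junction genes in Kuramochi, OVSAHO and OV-90.

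A 1.5-fold minimum called 4 members in OVSAHO (adding CDH2 and CDH18) and 10, 8 and 5 junction genes in Kuramochi, OVSAHO and EFO-21. With no fold minimum 4 members were called in OVSAHO and 8 in EFO-21, and 13, 10 and 14 junction genes in the same lines. A fit of all 23 libraries called 2 members in OV-90, CDH4 and CDH11. The share of all genes called under the filter, the other fold minimums or this fit is not given here. Nothing is therefore read from these counts. Leaving out each library in turn gave 0 to 3 members and 1 to 11 junction genes in OV-90 and 1 to 2 junction genes in EFO-21. The CDH2 minus CDH1 shift in Kuramochi was 2.71 with values floored at the bottom. In OV-90 its sign reversed when floored (-0.12), and over the left-out libraries it ran from -0.47 to 0.55. The causes were not tested. Depth being unknown, the bottom limits differences of members with 1 group at it (CDH1 and CDH18 in Kuramochi, CDH2 in OV-90, CDH19 in OVSAHO). It also limits those with some libraries at it (CDH3 in OVSAHO and EFO-21, CDH4 in OV-90 and EFO-21, CDH13 in all 4 lines).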
